A study of Mus musculus and Homo sapiens with 20 samples.

Results

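The genes described here are 9 basic helix-loop-helix (bHLH) transcription factor genes of the nervous system: the neurogenins Neurog1, Neurog2 and Neurog3, the neuronal differentiation genes Neurod1 and Neurod2, Atoh1, and the oligodendrocyte factor genes Olig1, Olig2 and Olig3. They were taken by gene symbol, 9 of the 21938 mouse and 9 of the 20033 human protein-coding genes on assembled chromosomes, and their peak coverage was read from CUT&Tag peak lists. CUT&Tag uses a transposase tethered to an antibody to cut and tag DNA around a chromatin mark. The 20 libraries formed 10 groups of 2. H2AK119ub (ubiquitylated histone H2A) and H3K27me3 (trimethylated histone H3) were each profiled in embryonic stem cells of the mouse (mES cells) and in haematopoietic stem and progenitor cells (HSPCs), here the Lin-c-Kit+ fraction of bone marrow. Both cell types were either wild type (WT) or lacked Tet2 (KO). For K562, an established line of human leukaemia cells, H2AK119ub was profiled after knockdown of MBD6 (siMBD6) or with a control siRNA (siControl).

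The WT and Tet2-/- mES cells were gifts to the study from another laboratory and were grown with serum, LIF and inhibitors of GSK3 and MEK, on gelatin after passages meant to clear feeder cells. HSPCs came from WT C57BL/6 mice and from Tet2-/- mice backcrossed to that strain, 6 to 8 weeks old and of both sexes. The HSPC fraction is a mixture of progenitors. The study's methods speak of biological replicates for its CUT&Tag peaks, but the sources used here do not say what separated the 2 libraries of a group, so p-values measure only the spread between these libraries.

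Proneural bHLH factors drive progenitor cells to leave the cell cycle and become neurons. They bind E-box DNA as dimers with E proteins, and Notch signalling holds them in check through Hes repressors, while Id proteins sequester their partners. Olig factors specify motor neuron progenitors and oligodendrocytes. Outside these lineages the genes are classic targets of Polycomb: Polycomb repressive complex 1 ubiquitylates H2A, Polycomb repressive complex 2 trimethylates H3, and both are recruited to CpG islands. The BAP1 deubiquitinase complex removes the ubiquitin. TET2 is a dioxygenase that oxidises 5-methylcytosine, and MBD6, a methyl-CpG-binding-domain protein, is a partner of the BAP1 complex.

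All 9 mouse members lie on autosomes (mm10, GENCODE). Neurog1 is at chr13:56250478-56252163 on the minus strand, Neurog2 at chr3:127633135-127635631 on the plus strand, and Neurog3 at chr10:62133090-62134763 on the plus strand. Neurod1 is at chr2:79452521-79456751 and Neurod2 at chr11:98325415-98329648, both on the minus strand. Atoh1 is at chr6:64729125-64731245, Olig3 at chr10:19356533-19358604, Olig2 at chr16:91225457-91228677 and Olig1 at chr16:91269772-91271933, all on the plus strand. Olig2 and Olig1 are neighbours, 41.1 kb apart, so wide domains at one can approach the other. The next protein-coding gene lay 15.1 kb or more from every other member, the closest being Zgrf1 beside Neurog2.

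By the median, the members' promoters held more CpG dinucleotides than those of all genes. Within 1 kb of the transcription start site (TSS) they held 62 to 164 CpGs with a median of 97, against a median of 61 over 21916 mouse genes. Neurod1, with 62, lay near the middle of all genes. The median ratio of observed to expected CpGs was 0.641 for the members and 0.474 for all genes, and Neurod2 (0.466) lay below the latter. Promoter sequences of 300 bases, from 250 before to 50 after the start, were found for 8 of the 9 members in RefSeq (GRCm38.p6, the assembly behind mm10). The 3 printed here show the range of CpG number, from the most to the fewest, and capitals mark the CpGs. Neurog1 (chr13:56252131-56252430, minus strand) held 32 CpGs in these 300 bases, Atoh1 (chr6:64728875-64729174, plus strand) held 20, and Olig3 (chr10:19356289-19356588, plus strand) held 4.
Neurog1: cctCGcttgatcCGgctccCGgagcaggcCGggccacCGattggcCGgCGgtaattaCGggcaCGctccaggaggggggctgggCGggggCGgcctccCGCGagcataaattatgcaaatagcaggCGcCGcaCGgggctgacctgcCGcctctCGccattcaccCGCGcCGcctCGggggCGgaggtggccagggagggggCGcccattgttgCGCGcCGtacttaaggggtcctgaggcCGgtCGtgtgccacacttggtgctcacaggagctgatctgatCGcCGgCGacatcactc
Atoh1: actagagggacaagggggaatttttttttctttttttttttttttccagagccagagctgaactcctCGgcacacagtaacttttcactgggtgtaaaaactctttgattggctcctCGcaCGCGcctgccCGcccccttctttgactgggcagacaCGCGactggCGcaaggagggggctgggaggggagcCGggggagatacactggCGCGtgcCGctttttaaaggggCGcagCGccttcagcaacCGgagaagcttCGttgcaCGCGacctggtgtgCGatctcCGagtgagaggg
Olig3: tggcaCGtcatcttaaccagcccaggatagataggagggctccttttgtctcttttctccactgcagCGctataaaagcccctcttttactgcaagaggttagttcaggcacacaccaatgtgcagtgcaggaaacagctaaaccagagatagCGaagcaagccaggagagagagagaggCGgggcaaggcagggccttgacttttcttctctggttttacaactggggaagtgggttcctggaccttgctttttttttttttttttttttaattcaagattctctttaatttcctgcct
The Olig3 window is poor in CpGs although 78 CpGs lie within 1 kb of its TSS. The letters cagatg or their reverse complement catctg, a form of the E-box that proneural factors bind, occurred in 1 of the 8 promoters, that of Neurod2, and in 17.2% of all 32851 RefSeq promoters.

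Coverage was measured as the kilobases under peaks within 10 kb of the TSS, a window of 20 kb that cannot hold more than 20 kb, and as the percent of the promoter (1 kb on each side of the TSS) or of the gene span under peaks. A domain is the set of peaks, joined across gaps of up to 1 kb, that reach into the promoter. A gene was called higher or lower where every library of one side lay above every library of the other. Groups of 2 against 2 libraries allow 6 assignments, so the two-sided exact permutation test cannot go below p = 0.3333. With 4 libraries on each side there are 70 assignments and the smallest p is 0.0286. Each such side holds 2 WT and 2 KO libraries, which the test treats as interchangeable, so genotype was not taken into account. Adjusted values are Benjamini-Hochberg over all genes with a peak in the window. The lists held 85121 to 167378 peaks covering 132 to 260 Mb, and they carry no counts, so depth is unknown and a longer list cannot be told apart from a wider mark. The list of HSPC WT H2AK119ub replicate 2 was the shortest of the 8 mouse H2AK119ub lists (112734 peaks), and values without it are given beside the results that use it where they moved.

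The labels were checked against marker promoters. Of 7 mES markers, Nanog, Pou5f1 and Tdgf1 had no promoter peak of H3K27me3 in any of the 4 mES libraries. Esrrb had one in all 4, and all 7 had an H2AK119ub promoter peak in every mES library. In the HSPC libraries 6 of the 7 had an H3K27me3 promoter peak in all 4. In HSPCs, Myb and Ptprc had no H3K27me3 promoter peak, but Cd34, Gata2, Kit, Spi1 and Tal1 had one in all 4 libraries, so these lists did not set the HSPC markers apart as unmarked. In K562, HBG1, HBG2 and MYB had no H2AK119ub promoter peak, while GATA1, KLF1, NFE2 and TAL1 had one in all 4 libraries. Of 6 neural markers, all had an H3K27me3 promoter peak in every mES and HSPC library. Of 4 feeder fibroblast genes, all had an H2AK119ub promoter peak in every mES library, and 3 had one of H3K27me3.

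Every mouse member carried both marks at its promoter in every library. In mES cells H2AK119ub touched 36 of 36 promoters (9 genes in 4 libraries) and covered 32 of them fully. Of all 21938 genes, it touched 14643 to 14883 promoters per mES library and covered 15.6% to 16.2% fully. H3K27me3 covered 35 of 36 fully in mES cells and 36 of 36 in HSPCs. Over all genes H3K27me3 touched 8002 to 10848 promoters per mES library and 12817 to 13513 per HSPC library. It covered 12.9% to 19.9% and 16.9% to 17.7% of all promoters fully. H2AK119ub in HSPCs touched all 36 but covered only 20 fully, 6 of 18 in WT and 14 of 18 in KO. Over all genes it touched 13829 to 15560 promoters per HSPC library. It covered 15.2% and 13.3% of all promoters fully in WT, and 17.6% and 17.7% in KO. The exception in mES cells was Neurod1, which directs neuronal and pancreatic endocrine differentiation: H2AK119ub covered 61.9% to 71.4% of its promoter in the 4 mES libraries.

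**Figure D1:**
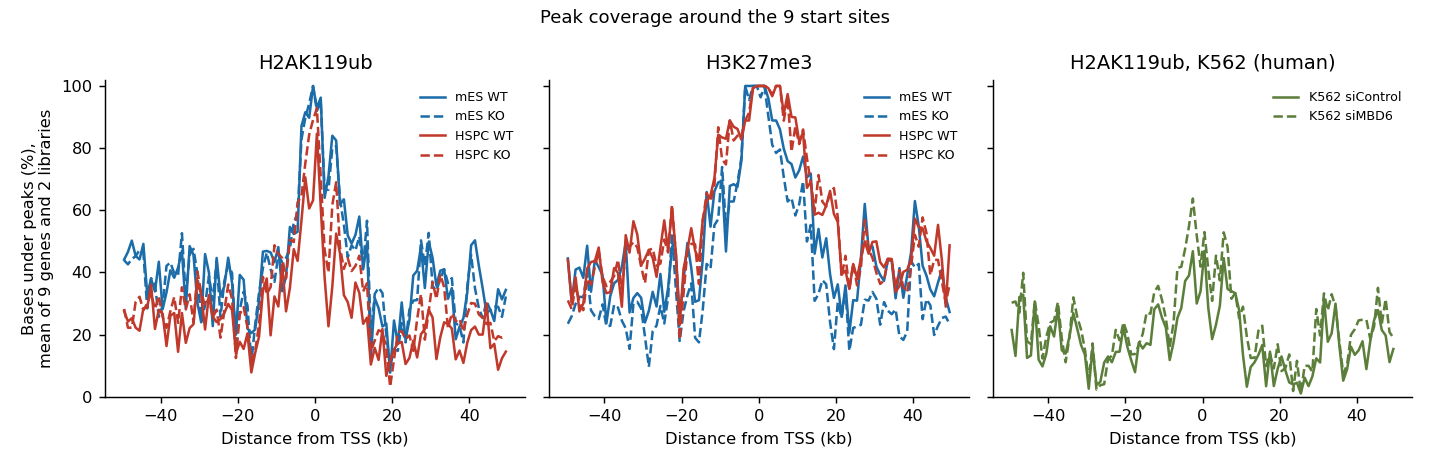
Percent of bases under peaks (vertical axis) in 1-kb bins at each distance from the TSS (horizontal axis, kb), as the mean of 9 genes and 2 libraries, for mouse H2AK119ub, mouse H3K27me3 and K562 H2AK119ub; solid lines are WT or siControl and dashed lines KO or siMBD6. Within 2 kb of the TSS, H2AK119ub covered 94.7% of bases in WT mES cells and 67.4% in WT HSPCs, while H3K27me3 covered 100% and 99.8%.

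The mean profile around the start sites counted every peak at a given distance, not only the domain at the start site. The outer range can therefore hold peaks of neighbouring genes, such as Olig1 beside Olig2. No profile over all genes is set beside it. Between 5 and 10 kb from the TSS, H3K27me3 covered 70.7% of bases in WT mES cells and 89.7% in WT HSPCs. H2AK119ub covered 53.7% and 36.9% there. Between 20 and 50 kb the order was the same in HSPCs, with 43.6% for H3K27me3 and 21.7% for H2AK119ub, while in WT mES cells the marks were close, with 37.8% and 36.1%. In KO mES cells the order at that distance was the other way, with 27.3% for H3K27me3 and 34.6% for H2AK119ub. The H3K27me3 lists covered 214 and 149 Mb in KO and 189 and 232 Mb in WT mES cells, and their part in this order was not tested. In WT HSPCs without the short H2AK119ub list, H2AK119ub covered 77.1%, 38.4% and 23.9% in the 3 distance ranges.

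Members differed widely from one another in mES cells. Neurod2, expressed in differentiating and mature neurons, had the most H2AK119ub within 10 kb: 20 and 18.9 kb in the WT libraries and 20 and 19.5 kb in the KO libraries. Neurod1 had the least, with 4.40 and 5.26 kb in WT and 4.44 and 4.99 kb in KO. Its paralogue's window was therefore nearly full where its own was mostly bare. The ranking over WT means was Neurod2 (19.4 kb), Olig2 (18.0 kb), Neurog1 (16.9 kb), Neurog2 (15.8 kb), Neurog3 (14.7 kb), Olig1 (13.9 kb), Atoh1 (10.2 kb), Olig3 (9.15 kb) and Neurod1 (4.83 kb). Among neighbours in this order, the WT libraries of Neurog1 and Neurog2, and those of Neurog2 and Neurog3, overlapped, and those of the other neighbouring pairs did not. The median over all protein-coding genes was 2.25 kb, and 65.2% of genes lay below Neurod1 while 99.5% lay below Neurod2.

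For H3K27me3 in mES cells the same genes stood at the ends of the order. Neurod2 was covered over all 20 kb in all 4 libraries, and Olig2, which specifies motor neurons and oligodendrocytes, over 20 and 19.4 kb in WT and 20 and 20 kb in KO. Neurod1 was again lowest, with 7.89 and 8.38 kb in WT and 7.61 and 6.20 kb in KO. Compared with H2AK119ub, H3K27me3 covered more of the window for all 9 members by the mean, and 6 of 9 were called higher and 0 lower. Over all genes 14.4% were called higher and 41.7% lower, and the median difference was 2.75 kb for the members against -0.63 kb for all genes. The 6 were Neurod1, Neurog2, Atoh1, Olig1, Olig2 and Olig3. Atoh1, which specifies cerebellar granule cells and inner ear hair cells, had 14.7, 15.0, 14.9 and 14.1 kb of H3K27me3 against 10.9, 9.58, 9.74 and 10.1 kb of H2AK119ub, a difference of 4.60 kb. These calls had p = 0.0286 by exact permutation and an adjusted p of 0.0509, which misses the threshold of 0.05.

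In HSPCs all 9 members were called higher for H3K27me3 and 0 lower, where 20.1% of genes were called higher and 48.3% lower. The median difference was 9.15 kb for the members and -1.10 kb for all genes. Each had p = 0.0286 by exact permutation, the smallest the design allows, and an adjusted p of 0.0418 over 18827 genes. That adjusted p was shared by 12869 genes called in either direction, and the permutation did not take genotype into account. Neurog3, the endocrine progenitor factor of the pancreas, showed the widest gap: H3K27me3 covered 19.2, 18.8, 18.8 and 19.3 kb, and H2AK119ub 7.40 and 5.36 kb in WT and 6.32 and 6.92 kb in KO. At Neurod1 H3K27me3 covered 17.2, 16.1, 14.7 and 15.8 kb and H2AK119ub 3.27, 3.16, 4.70 and 4.70 kb, a ratio of 4.02. Neurod2 had the smallest difference, 1.71 kb, and its window was nearly full for both marks. With replicate 2 left out of every group, which removes the short list, 9 of 9 were still called higher. Other neural bHLH genes leaned the same way, as given below for the gene lists.

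**Figure D2:**
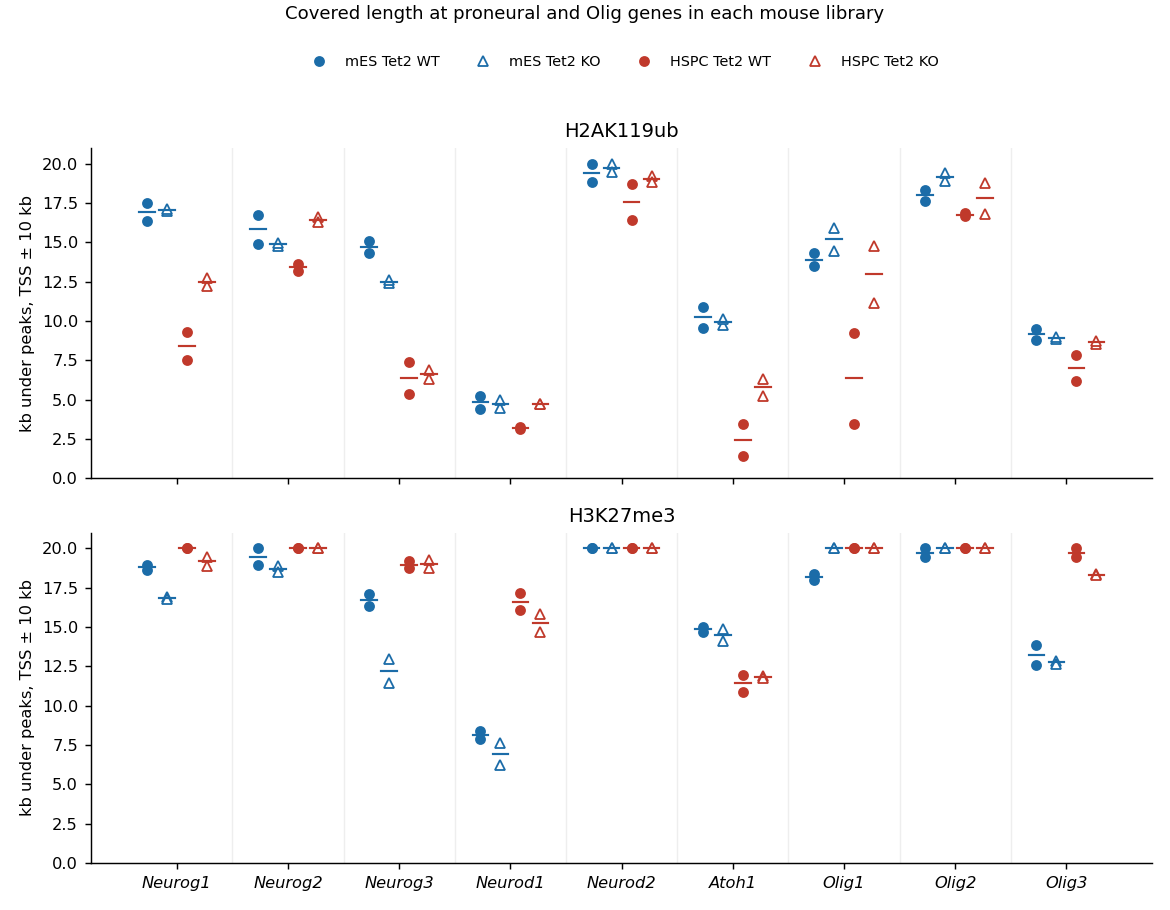
Kilobases under peaks within 10 kb of the TSS (vertical axis) for each member (horizontal axis), H2AK119ub above and H3K27me3 below; each point is 1 library, filled circles for WT and open triangles for KO, blue for mES cells and red for HSPCs, and bars are means of 2. H2AK119ub in WT HSPCs lies lowest at Atoh1 (1.44 and 3.47 kb), and H3K27me3 at Neurod1 is 6.20 to 8.38 kb in mES cells and 14.7 to 17.2 kb in HSPCs.

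The overlap of the marks was read base by base within 10 kb of the TSS. The bases covered by H2AK119ub in all 4 HSPC libraries lay wholly under bases covered by H3K27me3 in all 4 for every member (100%). At Neurog2, Neurod2, Olig1 and Olig2 H3K27me3 filled the whole window in all 4 libraries, so no other share was possible there. In mES cells the share was 100% for 7 members, 97.0% for Neurog1 and 88.5% for Neurog3. The reverse share in HSPCs was 7.97% for Neurog3, 11.2% for Atoh1, 12.6% for Olig1 and 13.6% for Neurod1, and 74.8% for Olig2 and 72.0% for Neurod2. In mES cells it ran from 60.4% at Neurod1 to 91.8% at Neurod2. In HSPCs the reverse share was highest at Olig2 and Neurod2, where H3K27me3 filled the window. There, as at Neurog2 and Olig1, it is only the part of the window under H2AK119ub in all 4 libraries. Without the short H2AK119ub list the HSPC shares of H3K27me3 bases under H2AK119ub were 23.1% for Neurog3, 25.9% for Atoh1, 31.1% for Olig1 and 23.3% for Neurod1, and 78.1% for Olig2 and 77.6% for Neurod2. No member had a base covered by H2AK119ub in all 4 libraries of a cell type and by H3K27me3 in none.

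With WT and KO libraries pooled, H2AK119ub was lower in HSPCs than in mES cells by the mean at all 9 members. The median difference was -1.30 kb against 0.35 kb for all genes. By the call, 4 of 9 were lower and 0 higher, where 21.2% of genes were lower and 30.6% higher. The 4 were Neurog3, Neurog1, Atoh1 and Olig3. Neurog1, which specifies sensory neurons, had 17.5, 16.4, 17.0 and 17.2 kb in mES cells against 9.28 and 7.55 kb in WT HSPCs and 12.2 and 12.7 kb in KO HSPCs, a difference of -6.56 kb. Neurog3 differed by -7.10 kb and Atoh1 by -5.96 kb, each with p = 0.0286 by exact permutation and adjusted p = 0.0552. Neurog2, a driver of cortical glutamatergic neurons, differed by -0.43 kb and its libraries overlapped. In KO alone Neurog2 was higher in HSPCs, with 16.6 and 16.3 kb against 14.8 and 15.0 kb in mES cells. Neurod1 was level there, with KO means of 4.70 kb in HSPCs and 4.71 kb in mES cells. The other members had lower KO means in HSPCs. The HSPC H2AK119ub lists were shorter, with 112734 to 136735 peaks over 139 to 177 Mb. The mES lists held 154919 to 167378 peaks over 235 to 260 Mb, and the part of list length in the result was not tested. Restricted to WT libraries, 9 of 9 were lower, and without replicate 1 the count was 7 and without replicate 2 it was 6. Fewer libraries on a side make separation easier, so the larger counts are not stronger evidence. No share of all genes is given for these settings. The median difference, -6.49% of the window, was -10.9% without replicate 2, -12.1% with WT libraries only, -13.3% with peaks of at least 1 kb and -19.2% with 5 kb on each side of the TSS.

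H3K27me3 differed between the cell types in both directions. By the call, 3 members were higher in HSPCs and 1 lower, where 34.8% of genes were higher and 20.4% lower. Neurod1 had a mean of 7.52 ± 0.939 kb (SD, n = 4) in mES cells and 15.9 ± 1.03 kb (SD, n = 4) in HSPCs, a ratio of 2.12. Olig3, which acts in dorsal spinal cord and hindbrain progenitors, had 12.6 and 13.9 kb in WT and 12.9 and 12.7 kb in KO mES cells, against 20, 19.4, 18.4 and 18.3 kb in HSPCs. Neurog3 was higher by 4.54 kb. Atoh1 went the other way, with 10.9, 12.0, 11.9 and 11.7 kb in HSPCs, 3.06 kb below the mES mean. These had p = 0.0286 by exact permutation and an adjusted p of 0.0518. At Neurod2 all 8 libraries were at the ceiling of 20 kb and at Olig2 7 were, so no rise could be seen in this window. Neurog3 and Olig3 were called both higher for H3K27me3 and lower for H2AK119ub in HSPCs, a pattern of 3.22% of genes.

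Domain widths are not limited by the window. By this measure 7 members had H3K27me3 domains wider in every HSPC library than in every mES library and 1 (Atoh1) narrower, where 34.6% of genes were wider and 16% narrower. The Neurod2 domain was 77.5 and 76.9 kb wide in WT HSPCs and 79.8 and 80.4 kb in KO HSPCs, against 51.0 and 51.4 kb in WT and 49.6 and 46.9 kb in KO mES cells. That domain reached into Ppp1r1b, which encodes a neuronal phosphatase inhibitor, in all 8 H3K27me3 libraries, and into Cdk12 on the other side in none. At Neurog1 the HSPC domain was 104 and 80.4 kb in WT and 141 and 59.2 kb in KO, so libraries of 1 group differed widely, and it reached Cxcl14 in 1 WT and 1 KO library. Olig1 and Olig2 kept separate domains in all 4 HSPC libraries, 31.5 to 35.6 kb and 38.1 to 42.3 kb wide. For H2AK119ub 5 members were narrower and 0 wider in HSPCs, where 16.4% of genes were narrower and 22.3% wider. The HSPC H2AK119ub lists were also the shorter, as given above. Between marks, H3K27me3 domains were wider for 6 members and narrower for 0 in mES cells (12.9% and 37.8% of genes) and wider for 9 and narrower for 0 in HSPCs (18.7% and 36.7% of genes). These counts depended on the joining gap, as alternatives chosen after seeing the data showed. With gaps of up to 3 kb joined, 1 member (Atoh1) was narrower and 1 (Neurog2) wider for H2AK119ub in HSPCs. Over all genes 14.8% were narrower and 26.4% wider. For H3K27me3 6 members were wider and 0 narrower, where 34.4% of genes were wider and 16.9% narrower. Between marks, H3K27me3 domains were then wider for 4 members in mES cells and 8 in HSPCs, and Neurod2 was narrower in both. Over all genes 9.86% were wider and 42% narrower in mES cells, and 15.5% and 42.3% in HSPCs. With no joining, 7 members were narrower and 0 wider for H2AK119ub in HSPCs, where 16.3% of genes were narrower and 21.5% wider. For H3K27me3 5 were wider and 1 (Atoh1) narrower, where 34.7% of genes were wider and 15.4% narrower. Leaving out the short list did not change the H2AK119ub counts between cell types or the HSPC counts between marks at the 1-kb gap. The other counts do not use that list.

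**Figure D3:**
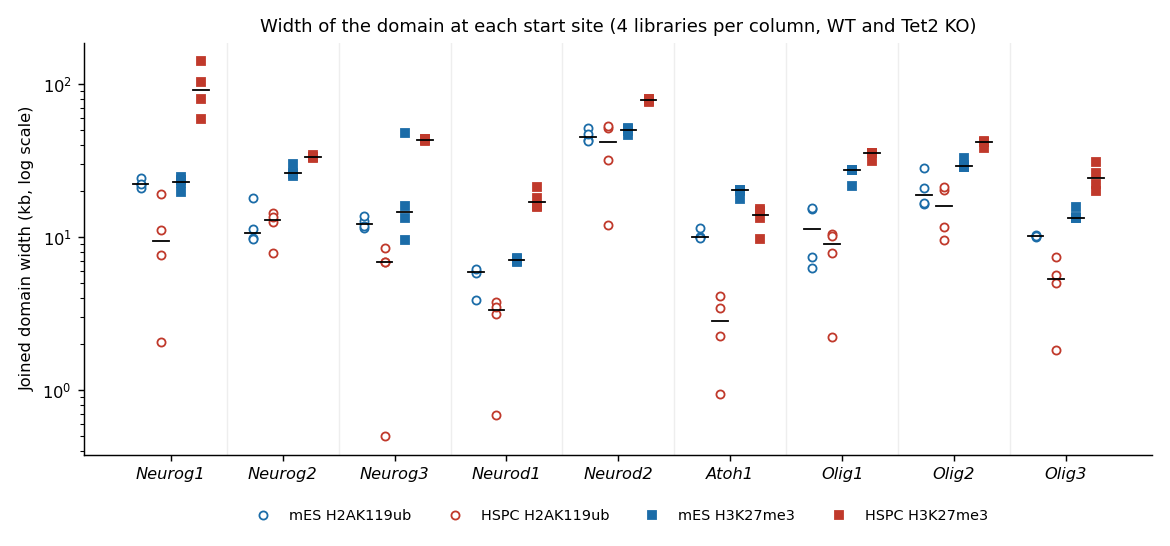
Width of the joined domain (vertical axis, kb, log scale) for each member; each point is 1 of 4 libraries (WT and KO), open circles H2AK119ub, filled squares H3K27me3, blue mES cells and red HSPCs, and bars are medians. The H3K27me3 domain at Neurog1 in HSPCs runs from 59.2 to 141 kb, and the H2AK119ub domain at Neurog3 in HSPCs from 0.501 to 8.54 kb.

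Within 10 kb of the TSS, bases were divided into CpG-rich (in a 200-bp window with at least 50% GC and an observed to expected CpG ratio of at least 0.6) and other. The CpG-rich part was 2.45 to 7.17 kb per member. CpG-rich and other bases were not matched for distance from the TSS. Coverage fell with that distance, and the part of distance in the contrast was not tested. H2AK119ub covered a median of 96.9% of CpG-rich and 65.5% of other bases in mES cells, and 83.8% and 41.8% in HSPCs. For H2AK119ub, CpG-rich bases were the better covered at 9 of 9 members in HSPCs, 8 of 9 without the short list, and 8 of 9 in mES cells, where Neurod2 had 96.9% and 98.3%. The HSPC medians without the short list were 83.8% and 53.4%. At Atoh1 the HSPC values were 69.1% and 9.55%, against 94.7% and 40.3% in mES cells. H3K27me3 covered a median of 100% of CpG-rich bases in both cell types, and 86.6% of other bases in mES cells and 97.6% in HSPCs. CpG-rich bases were the better covered at 8 of 9 members in mES cells and 4 of 9 in HSPCs, where 4 were equal and Neurog3 had 83.3% and 97.6%. At Neurod1 its coverage of other bases was 26.6% in mES cells and 75.8% in HSPCs.

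**Figure D4:**
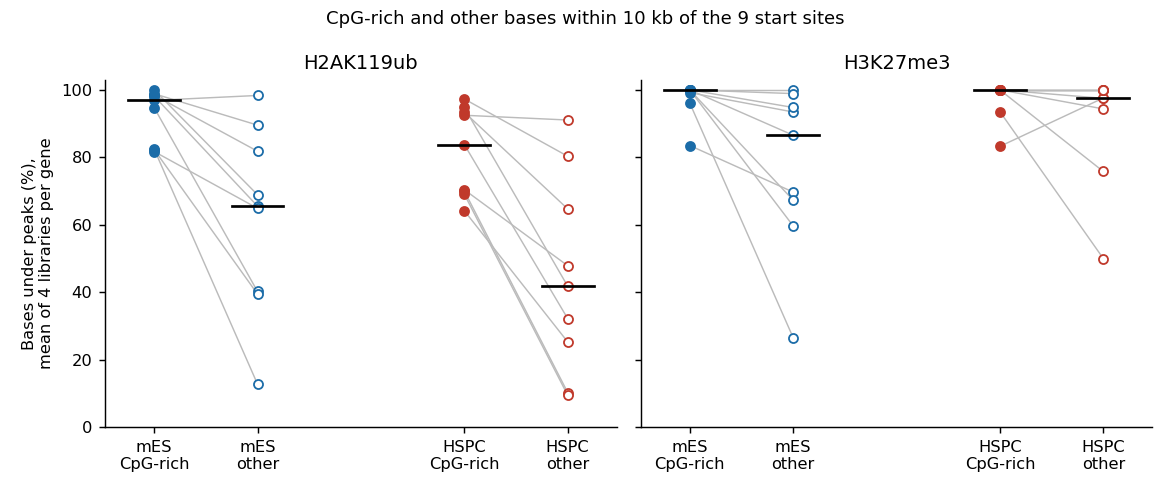
Percent of bases under peaks (vertical axis) in CpG-rich (filled) and other (open) bases within 10 kb of the TSS, as means of 4 libraries; each line joins 1 of the 9 genes and bars are medians. The H2AK119ub medians are 96.9% and 65.5% in mES cells and 83.8% and 41.8% in HSPCs.

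The Tet2 comparisons ask whether loss of the enzyme changed the marks at these genes. In HSPCs, H2AK119ub was higher in KO by the mean at all 9 members, and 7 of 9 were called higher and 0 lower, where 25.9% of genes were higher and 12.1% lower. The median difference was 1.65 kb against 0.25 kb for all genes. Olig1, an oligodendrocyte maturation factor, had 9.26 and 3.48 kb in WT and 14.8 and 11.1 kb in KO. Neurog1 had 9.28 and 7.55 kb in WT and 12.2 and 12.7 kb in KO, a ratio of 1.48. Atoh1 had 3.47 and 1.44 kb in WT and 6.31 and 5.26 kb in KO, a ratio of 2.36. Both libraries of each KO group lay above both of WT for these genes.

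Neurod1 had 3.27 and 3.16 kb of H2AK119ub in WT and 4.70 and 4.70 kb in KO HSPCs. Neurog2 had 13.6 and 13.2 kb against 16.6 and 16.3 kb, Olig3 7.81 and 6.15 kb against 8.53 and 8.74 kb, and Neurod2 16.4 and 18.7 kb against 19.2 and 18.8 kb. Neurog3, with 7.40 and 5.36 kb against 6.32 and 6.92 kb, and Olig2, with 16.6 and 16.9 kb against 16.8 and 18.8 kb, overlapped. Every call had p = 0.3333 by exact permutation, which the design cannot better, and an adjusted p of 0.877, so none passes a threshold. The WT lists held 133202 and 112734 peaks and the KO lists 129892 and 136735, and their part in the result was not tested. Without WT replicate 2, 8 of 9 members were higher, and with the lists cut to the same number of peaks 7 were. That cut kept the first peaks in file order, and the lists do not say what the order stands for. Separation is easier with fewer libraries, and no share of all genes is given for the count without WT replicate 2.

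H3K27me3 in the same HSPCs showed 0 members higher and 3 lower in KO, where 16.5% of genes were higher and 29.6% lower. The 3 were Neurod1, Olig3 and Neurog1, with differences of -1.37, -1.39 and -0.81 kb. The windows of 4 members stood at 20 kb in all 4 libraries and could not differ. With 5 kb on each side of the TSS, 0 members were called lower.

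In mES cells, 2 members were called higher and 1 lower for H2AK119ub in KO, where 17.0% of genes were higher and 20.5% lower. Olig1 had 14.3 and 13.5 kb in WT and 15.9 and 14.5 kb in KO, and Olig2 had 17.6 and 18.3 kb against 18.9 and 19.4 kb. Neurog3 was lower, with 14.3 and 15.1 kb against 12.4 and 12.6 kb. The count called higher was 5 without WT replicate 1 and 4 without WT replicate 2. For H3K27me3, 1 member was higher and 4 lower, where 6.11% of genes were higher and 44.2% lower, so the members' share called lower was near that of all genes. Neurog3 differed most, with 16.3 and 17.1 kb in WT and 13.0 and 11.4 kb in KO. Neurog1, Neurod1 and Neurog2 were the others called lower, and Olig1 was higher, with 18.0 and 18.3 kb against 20 and 20 kb. The median difference, -2.44% of the window, was -5.65% without WT replicate 1, -1.15% without WT replicate 2 and -3.88% without KO replicate 1. The smallest adjusted p by exact permutation was 0.889 for H2AK119ub and 0.662 for H3K27me3.

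In K562, the median H2AK119ub coverage of the 9 orthologues after siControl was 4.87 kb, against 0.251 kb over all genes. ATOH1 had no peak within 10 kb in any of the 4 libraries. NEUROD1 and NEUROG1 had no promoter peak in any library. NEUROG3 and OLIG2 had fully covered promoters in all 4. Species, cell and list cannot be told apart in these levels.

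After siMBD6, 6 of the 8 tested orthologues were called higher and 0 lower, where 50.8% of genes were higher and 1.73% lower. The median difference was 2.21 kb against 0.78 kb for all genes. NEUROD2 had 13.9 and 11.75 kb after siControl and 17.5 and 17.0 kb after siMBD6. NEUROG2 had 3.48 and 4.54 kb against 6.86 and 6.997 kb, and NEUROG3 8.71 and 7.86 kb against 11.5 and 9.97 kb. NEUROG1, OLIG2 and OLIG3 were also higher, by 1.02, 2.22 and 1.54 kb. OLIG1 had 9.68 and 11.7 kb against 11.6 and 14.3 kb, and NEUROD1 0 and 0.501 kb against 1.38 and 0.501 kb, and both overlapped.

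**Figure D5:**
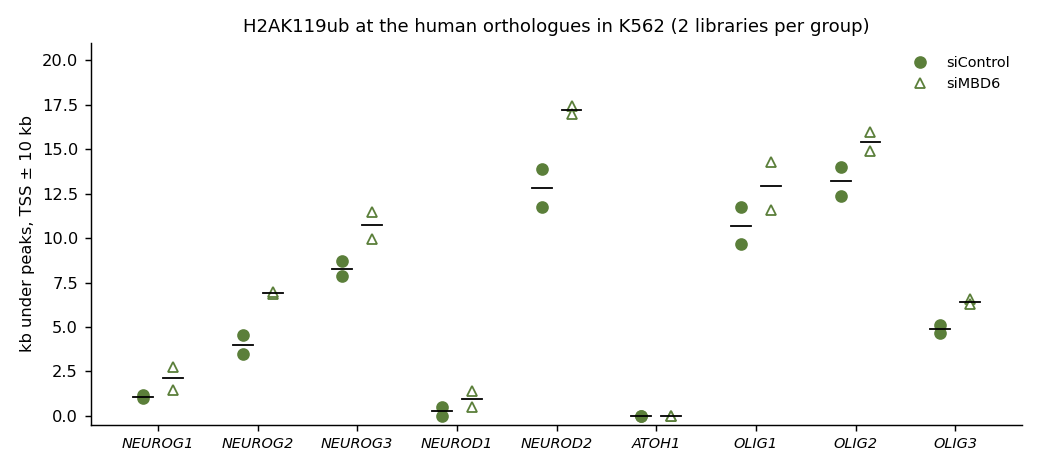
Kilobases of H2AK119ub peaks within 10 kb of the TSS (vertical axis) for each human orthologue in K562; each point is 1 library, filled circles siControl and open triangles siMBD6, and bars are means of 2. NEUROD2 is 11.75 and 13.9 kb after siControl and 17.0 and 17.5 kb after siMBD6, and ATOH1 is at 0 in all 4 libraries.

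The NEUROD2 domain was 6.56 and 1.60 kb wide after siControl and 47.1 and 33.6 kb after siMBD6, and it reached PPP1R1B in 1 siMBD6 library. The difference depended on the joining gap. With gaps of up to 3 kb joined the widths were 59.2 and 52.3 kb after siControl and 53.8 and 45.7 kb after siMBD6, and with no joining 2.58 and 1.60 kb against 9.50 and 2.07 kb. The siControl lists held 91721 and 91776 peaks and the siMBD6 lists 107166 and 110860, and their part in the result was not tested. With lists cut to equal length in file order 6 were higher. The p was 0.3333 by exact permutation for each call and the smallest adjusted p was 0.634. The median difference, 11.04% of the window, was 6.60% without siControl replicate 1.

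The pathway around these genes was described through lists of symbols. For H2AK119ub in HSPCs, Tet2 KO against WT, 6 of 11 other neural bHLH genes were higher and 0 lower, with a median difference of 1.35 kb. Of 14 bHLH genes of other tissues, such as the muscle, mesoderm and blood factors, 12 were higher and 0 lower, with a median of 1.95 kb. Of 3 E protein genes, the dimer partners, 2 were higher. Of 12 inhibitor genes (Id, Hes and Hey), 5 were higher and 3 lower. Of 10 Notch pathway genes 3 were higher and 0 lower, and of 8 oligodendrocyte lineage genes 3 were higher and 0 lower. These counts stand beside 25.9% and 12.1% of all genes.

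For H2AK119ub in HSPCs against mES cells, 7 of 11 other neural bHLH genes were lower and 0 higher, and 5 of 8 oligodendrocyte lineage genes were lower and 0 higher. Of the bHLH genes of other tissues 9 of 14 were lower and 1 higher, with a median of -2.63 kb, and of the feeder fibroblast genes 3 of 4 were lower. Over all genes 21.2% were lower and 30.6% higher. Of the 3 E protein genes, Tcf3 and Tcf4 were higher and 0 lower. Among the inhibitors, 2 were higher and 3 lower. In WT mES cells the E protein Tcf4 had 0.501 kb of H2AK119ub and Tcf3 8.46 kb, and in WT HSPCs 1.07 and 14.0 kb. In K562, siMBD6 left 5 of 7 tested other neural bHLH genes and 7 of 10 tested inhibitors higher and 0 lower, beside 50.8% and 1.73% of all genes. For H3K27me3 against H2AK119ub in HSPCs, 7 of 11 other neural bHLH genes were higher and 0 lower (median 9.81 kb). Of the bHLH genes of other tissues 8 of 14 were higher and 3 lower, and of the E protein genes 0 and 3. In mES cells 7 of 11 other neural bHLH genes were higher and 0 lower (median 2.79 kb). The contrast between marks was thus not particular to the members.

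For each member, the gene with the most similar coverage over the 16 mouse libraries, apart from members and genes within 50 kb of one, was found by the mean absolute difference in covered kilobases. Neurod2 was nearest to Hoxc9 (0.247 kb), Olig2 to Hoxa11 (0.448 kb), Neurog2 to Hmx3 (0.56 kb), Olig1 to Pax9 (0.696 kb) and Neurog1 to Nkx2-2 (0.751 kb). Atoh1 was nearest to Syt13 (0.776 kb), Olig3 to Bsx (0.847 kb), Neurod1 to Tmem108 (0.87 kb) and Neurog3 to Slc6a5 (0.948 kb). Of these, 6 encode homeodomain or paired-domain transcription factors, and the share of such factors among all genes was not counted. Among the members the closest pair was Neurod2 and Olig2 (0.57 kb) and the most distant Neurod1 and Neurod2 (11.4 kb). The window holds at most 20 kb, and Neurod2 and Olig2 had means of 17.3 to 20 kb for both marks in both cell types. Differences beyond the window are not seen by this distance. The HSPC H3K27me3 domains had means of 78.7 kb at Neurod2 and 41.2 kb at Olig2.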

How the data were processed

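The authors deposited 1 CUT&Tag peak list per library, 20 in all, holding chromosome, start and end. The lists have no score, count, coverage or p-value; the only values, deposited by the authors in another unit than counts, are positions. The methods describe MACS2 broad peaks, spike-in scaling and a replicate filter, but the lists carry no scaling or filter, and the submitters’ processing notes name Trimmomatic 0.39, Bowtie2 2.4.1 and HOMER 4.9. Between 30.4% and 41.4% of peaks per list were 501 bp wide, at most 3 were narrower and neighbouring peaks lay at least 499 bp apart, so small changes cannot be seen. Peaks were intersected with GENCODE M21 (mm10) and 44 (hg38) protein-coding genes in Python 3.11.15 with numpy 2.4.6, pandas 2.3.3 and matplotlib 3.10.9. Peaks past chromosome ends numbered 0 in either build. The calls were tested on simulated lists. Members and gene lists were chosen with earlier results of these data known. Named genes were the members, the most similar gene to each, neighbours reached by a domain, and genes of the lists. Replicate numbers were not shown to pair libraries (correlations of deviations from -0.351 to 0.057). Alternatives were other windows, peak widths, list lengths, joining gaps, WT libraries only, leaving out replicates and a replicate block.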

Additional observations from a re-analysis of the deposited data

Results flagged for a closer look

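The change between cell types differed between the marks at 4 members. The value is the HSPC minus mES difference for H3K27me3 less that for H2AK119ub, in kb within 10 kb of the TSS. It was 11.64 kb at Neurog3 (4.54 kb for H3K27me3 and -7.10 kb for H2AK119ub), 9.221 kb at Neurod1 (8.41 and -0.81 kb), 8.327 kb at Neurog1 (1.77 and -6.56 kb) and 7.241 kb at Olig3 (6.02 and -1.22 kb). The difference was tested by exact permutation of the libraries within each mark (4900 arrangements), a test added after the data were seen, with adjusted p over 19711 genes of 0.0102, 0.0346, 0.0157 and 0.0102. Of all genes, 1934 passed at 0.05. The permutation did not take genotype into account. The other 5 members did not pass: Olig1 5.80 kb, Atoh1 2.90 kb, Olig2 1.44 kb, Neurog2 1.35 kb and Neurod2 1.30 kb. For Neurod2 and Olig2 the H3K27me3 window was full or nearly full in both cell types. Without HSPC WT H2AK119ub replicate 2, the shortest of the mouse H2AK119ub lists, the values were 11.3 kb at Neurog3, 8.96 kb at Neurod1, 7.36 kb at Neurog1 and 6.69 kb at Olig3, with adjusted p by exact permutation of 0.0115, 0.0516, 0.0166 and 0.0115, so Neurod1 no longer passed. List lengths differed between cell types and marks, and their part in these differences was not tested.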

How the results depend on the processing

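Depth is unknown for these lists and the window saturates at 20 kb. Counts of members with fewer libraries on a side have no share of all genes beside them, and separation is then easier. Of the alternatives other than leaving out a library, 94 values kept their call, moved by less than 1 SD between libraries or, for counts, stayed within 1.5 times, 25 moved further and 1 reversed. Of those leaving out a library 55, 10 and 2 did, and 1 lost its call (Neurod1, between marks and cell types). Since that SD was large, medians could move more than 1.5 times within it: HSPC H2AK119ub in Tet2 KO from 8.267% to 13.55% with peaks of at least 1 kb, and H3K27me3 between cell types from 4.586% to 1.545% with 5 kb. Causes were not tested. Some of the 94 and 55 values could not have moved. They are medians under a pairing of replicates, and domain counts that do not use the list left out. The reversed value was the median mES H2AK119ub difference in Tet2 KO (-0.59% of the window), which was 0.3313% with 20 kb on each side and -1.495% to 1.742% leaving out 1 library (0.2575% without KO replicate 1). The 2 members called higher there were 1 with peaks of at least 1 kb, 1 with 5 kb on each side and 2 to 5 leaving out 1 library.

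For mES H3K27me3 in Tet2 KO the median of -2.44% was -1.195% with 5 kb, -6.839% with 20 kb and -5.65% to -1.15% leaving out 1 library. For HSPC H3K27me3 the 3 members called lower were 0 with 5 kb. In K562 the median of 11.04% was 12.76% with peaks of at least 1 kb, 7.297% with 20 kb and 6.6% to 8.84% leaving out 1 library. Between cell types, the 4 members lower for H2AK119ub were 9 with WT libraries only and 6 to 7 leaving out 1 replicate. The 3 higher for H3K27me3 were 7 with 20 kb and 5 with WT libraries only, and the median of 4.586% was 16.13% with 20 kb. The mES difference between marks, 13.74%, was 7.433% with 20 kb. Without joining and with joining across 3 kb, the median domain width was 3.782 and 17.65 kb for HSPC H2AK119ub (7.662 kb), 27.95 and 37.43 kb for HSPC H3K27me3 (34.44 kb), 9.819 and 22.88 kb for mES H2AK119ub (12.3 kb), and 19.14 and 33.36 kb for mES H3K27me3 (22.59 kb).

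With the replicate number as a block, the members called were 2 and 4 for mES H2AK119ub and H3K27me3. They were 8 and 3 for HSPC H2AK119ub and H3K27me3, and 7 in K562. Without the block the counts were 2, 4, 7, 3 and 6. Pairing cannot change the medians, because the mean of paired differences equals the difference between group means. For mES H3K27me3, where the correlation was -0.351, the crossed pairing, chosen after seeing the data, gave 5 members called lower.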
